A study of Mus musculus with 17 samples.

Results

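The comparison set hearts 6 weeks after transverse aortic constriction (TAC) against hearts 1 week after it, all from mice given SR9009. TAC is an operation that narrows the aorta, so that the left ventricle pumps against a raised pressure. The rule took the 3 libraries labelled TAC 6 week+SR9009 and the 4 labelled TAC 1 week+SR9009, 7 of the 17 libraries of the series, and dropped every gene that the authors' tool had left uncounted in any of the 7. All mice were C57BL/6, kept on normal chow in a light and dark cycle, with SR9009 or vehicle every day and the heart taken at about zeitgeber time 10, that is 10 h after lights on. The other libraries used here were TAC 1 week vehicle (n = 4) and TAC 6 week vehicle (n = 3), for the same pair of times without the compound. The labels give no sex, age, dose, exact hour per mouse or chamber of the heart, and nothing in them says that each replicate is its own animal. The p-values hence describe the scatter of these libraries alone, which may be technical. The 3 libraries labelled Control are given beside some values for reference; the labels do not say whether these mice had a sham operation, or which of vehicle or SR9009. The weeks under load, the weeks of dosing, the age of the mice and any batch of harvest or sequencing therefore cannot be told apart in this comparison.

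In a loaded heart the muscle cells enlarge and switch on genes of the fetal ventricle, fibroblasts divide and lay down collagen, and macrophages gather, while genes for burning fatty acids tend to be turned down. SR9009 activates REV-ERB alpha and REV-ERB beta, nuclear receptors encoded by Nr1d1 and Nr1d2. These bind heme and repress transcription, and in the circadian clock they hold down Arntl, Clock, Npas2 and Nfil3. The clock runs as a loop in which ARNTL with CLOCK or NPAS2 drives the genes of its own repressors, the Per, Cry and Nr1d genes, so that in the hearts of mice the level of each clock gene depends on the hour of harvest.

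The 41126 genes of each table were reduced to 41048 after dropping 78 that were left uncounted, among them the heart myosin gene Myh6, the titin gene Ttn and Malat1. Over the genes left, the libraries held 10.8 to 13.4 M (mega) fragments at 1 week and 9.69 to 13.3 M at 6 weeks. Of these genes, 15931 passed the filter on low counts and were tested. Cardiomyocyte markers were abundant in every library, with a summed level of 29298 to 42442 CPM (a gene's count scaled so that library totals match) at 1 week and 43104 to 44932 CPM at 6 weeks over the 7 of 8 markers that were counted. The 1-week library 2 stood apart from its group. Its mean Pearson correlation over genes with the other 1-week libraries was 0.9812, against 0.9859 to 0.9877 for the other three, and its erythroid markers summed to 1663 CPM, against 336 to 492 CPM in them. It held the lowest cardiomyocyte sum and the highest sums for collagen, interferon and macrophage genes, and leaving it out is the one measure taken of its part in the results below. The library kit does not mark strand, so reads from genes on opposite strands of the same bases cannot be told apart; among the genes checked for this it touches Atcay, Ucp3, Kif18b, Melk, Top2a, Col14a1, Ccn2, Ednra, H2-Eb1, C2, Cox5a, Dbt, Cacna1c, Kcnd3, Gadd45a, Psat1, Dusp1, Nppa, Acta1, Myh7, Npas2, Nr1d1, Dbp, Cntn5, Ugp2, Ackr4, Rmrp and Ccdc107. Below, the values of single libraries are in CPM and in the order of their replicate numbers, 1 to 4 at 1 week and 1 to 3 at 6 weeks. A log2 fold change is 6 weeks minus 1 week, with its standard error, and passed where edgeR's quasi-likelihood test gave a Benjamini-Hochberg adjusted p under 0.05 (two-sided).

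**Figure D1:**
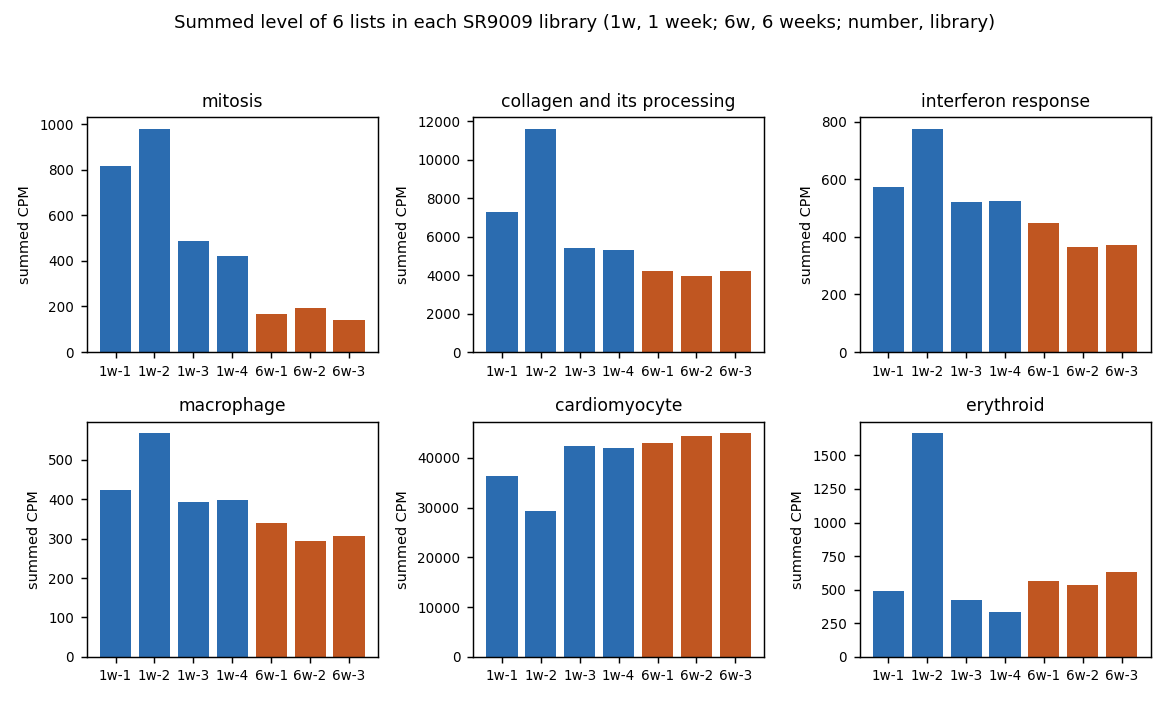
Summed CPM of 6 gene lists in each of the 7 SR9009 libraries (blue, 1 week; orange, 6 weeks; each bar 1 library). The 1-week library 2 has the highest bar for mitosis, collagen, interferon, macrophage and erythroid genes and the lowest for cardiomyocyte genes, and the 3 libraries at 6 weeks have the lowest mitosis, collagen, interferon and macrophage bars.

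In all, 1426 genes passed (8.95% of those tested), 524 of them higher (3.29%) and 902 lower (5.66%) at 6 weeks. The falls were the larger changes: 316 genes were at least 2-fold lower and 36 at least 2-fold higher, while 763 of the 1426 changed by less than 1.5-fold. The median log2 fold change over all genes tested was 0.01. Libraries of both times did not overlap for 1714 genes with higher values at 6 weeks (10.8%) and 1920 with lower values (12.1%). The count depended on single libraries, with 758 genes without 1-week library 1, 743 without 1-week library 2, and 447, 619 and 618 without 6-week libraries 1, 2 and 3. Fitted to the 7 libraries alone it was 451. The plot of the members of 24 pathway lists shows where the changes lay: cell division, matrix and interferon genes to the left, and genes of muscle energy use slightly to the right. Some list members were named after their values were seen, to spell out a count.

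**Figure D2:**
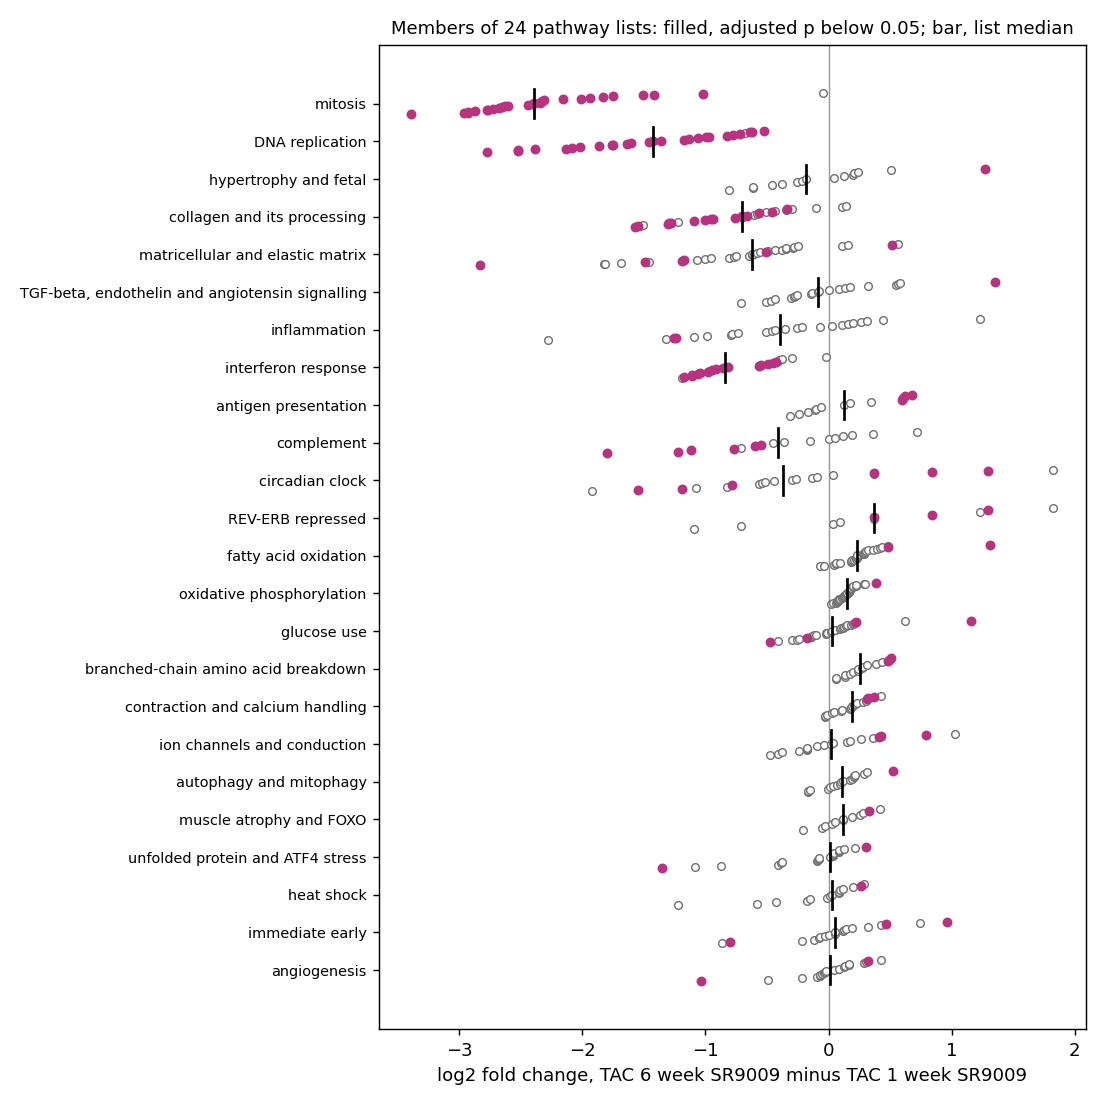
Log2 fold change from 1 to 6 weeks under SR9009 for every tested member of 24 pathway lists (1 point per gene; filled points passed an adjusted p of 0.05, open points did not; black bars are list medians). The mitosis list has its median at -2.39 and the DNA replication list at -1.43, while the list of oxidative phosphorylation genes has its median at 0.15.

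Cell division genes fell almost without exception. Of 28 genes of mitosis 27 fell and 0 rose, with a median log2 fold change of -2.39, and of 27 genes of DNA replication 26 fell and 0 rose, with a median of -1.43, where 5.66% of all genes fell. Mki67 (ENSMUSG00000031004.7, chromosome 7, 135689784 to 135716361), the proliferation marker that coats mitotic chromosomes, was at 207, 250.1, 107 and 86.9 CPM at 1 week and 25.7, 25.1 and 14.1 CPM at 6 weeks. The groups did not overlap, and within the 1-week group libraries 1 and 2 stood well above libraries 3 and 4. The means were 163 ± 78.4 CPM (SD, n = 4) and 21.6 ± 6.51 CPM (SD, n = 3), which gave -2.93 ± 0.40 as the log2 fold change (adjusted p = 0.00128). The 3 Control libraries held 24.3, 23.8 and 20.8 CPM.

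Promoter windows of both kinds of division gene are shown because many members of each list hold the same short motif there. The cell cycle genes homology region, TTTGAA, is a known element of genes used in mitosis, and TTCCCGC is a form of the site bound by E2F factors, which drive genes used in DNA synthesis. Windows run from 250 bases before to 50 bases after a gene's start, are from RefSeq on GRCm38.p6, and were searched on both strands; any window of a gene counted. TTTGAA was found for 16 of the 22 mitosis genes that have a window (72.7%), against 20.2% of 27025 genes. TTCCCGC was found for 10 of 22 DNA replication genes (45.5%), against 5.29% of all. Neither shown window holds the other motif, and a match describes letters, not a bound site. In the Mki67 window (chr7:135716330-135716629, minus strand) capitals mark TTTGAA or its reverse complement, and in the Uhrf1 window (chr17:56303087-56303386, plus strand) capitals mark TTCCCGC.
Mki67: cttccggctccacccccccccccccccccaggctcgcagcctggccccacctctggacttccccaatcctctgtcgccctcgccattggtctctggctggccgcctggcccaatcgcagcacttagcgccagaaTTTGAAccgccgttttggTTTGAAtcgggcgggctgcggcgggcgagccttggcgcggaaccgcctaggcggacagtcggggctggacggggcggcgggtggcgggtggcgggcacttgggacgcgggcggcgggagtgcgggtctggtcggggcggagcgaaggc
Uhrf1: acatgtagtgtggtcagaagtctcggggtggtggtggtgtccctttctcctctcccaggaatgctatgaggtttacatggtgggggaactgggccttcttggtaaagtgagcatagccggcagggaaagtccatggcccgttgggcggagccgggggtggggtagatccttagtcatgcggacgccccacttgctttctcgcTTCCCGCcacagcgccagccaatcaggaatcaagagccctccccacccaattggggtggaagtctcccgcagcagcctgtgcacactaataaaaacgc

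Uhrf1 (ENSMUSG00000001228.9, chromosome 17, 56303321 to 56323486), which brings the maintenance DNA methyltransferase to newly copied DNA, was at 24.9, 28.4, 13.9 and 10.3 CPM at 1 week and 2.43, 3.04 and 2.99 CPM at 6 weeks. Every 6-week library lay below every 1-week library, and the log2 fold change was -2.77 ± 0.40 (adjusted p = 0.00147). Rrm2, a subunit of the reductase that makes DNA building blocks, went from 16.8, 17.3, 7.31 and 7.96 to 2.07, 2.496 and 1.92 CPM (-2.52 ± 0.34, adjusted p = 0.00125). Top2a, which untangles chromosomes before they separate, was at 112, 142, 64.8 and 50.8 CPM at 1 week and 11.8, 16.6 and 7.98 CPM at 6 weeks (-2.96 ± 0.41, adjusted p = 0.00128). For both genes the pair of times did not overlap, and 1-week libraries 1 and 2 were again the highest. Plk1, a mitotic kinase named here to show the largest fall of the mitosis list, had a log2 fold change of -3.39 ± 0.63 from a level of only 3.299, 5.87, 2.57 and 1.24 CPM. The 2 members that did not pass were Cenpa, a centromere histone, at -0.05 ± 0.09, and Gins1, a part of the replicative helicase, at -0.68 ± 0.24 (adjusted p = 0.0839). The mitosis count was 27 under each of the 15 alternatives run for this comparison. The DNA replication count was 19, 18, 18, 21 and 16 without 1-week libraries 1 and 2 and 6-week libraries 1, 2 and 3, and 16 in the 7 libraries alone.

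Among genes that passed, reached 5 CPM or more in a group and showed no overlap of libraries, the largest falls belonged to the same process. Kif18b, a motor that trims spindle microtubules, went from 7.06, 7.800, 3.19 and 2.94 to 0.451, 0.326 and 0.2301 CPM, with a log2 fold change of -3.94 ± 0.61 (adjusted p = 0.00181). Kntc1, a kinetochore checkpoint protein, fell by 3.39 on the log2 scale, the kinase gene Melk by 3.18, and Dtl, which marks replication factors for destruction, by 3.17. Depdc1a, which is linked to mitotic progression, fell by 3.13 and Cep55, needed for the final cut between daughter cells, by 2.99. The linker histone genes Hist1h1b and Hist1h1a fell by 3.33 and 3.29, and Hist1h3b by 3.14. Histone genes are near-identical copies that can share reads, so their values are uncertain one by one. At 6 weeks these genes were at 0.2301 to 3.26 CPM. In the vehicle mice the mitosis list also held 27 falls, with a median of -2.10, and no member of either list differed between the compounds by the test of the difference between both time comparisons.

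**Figure D3:**
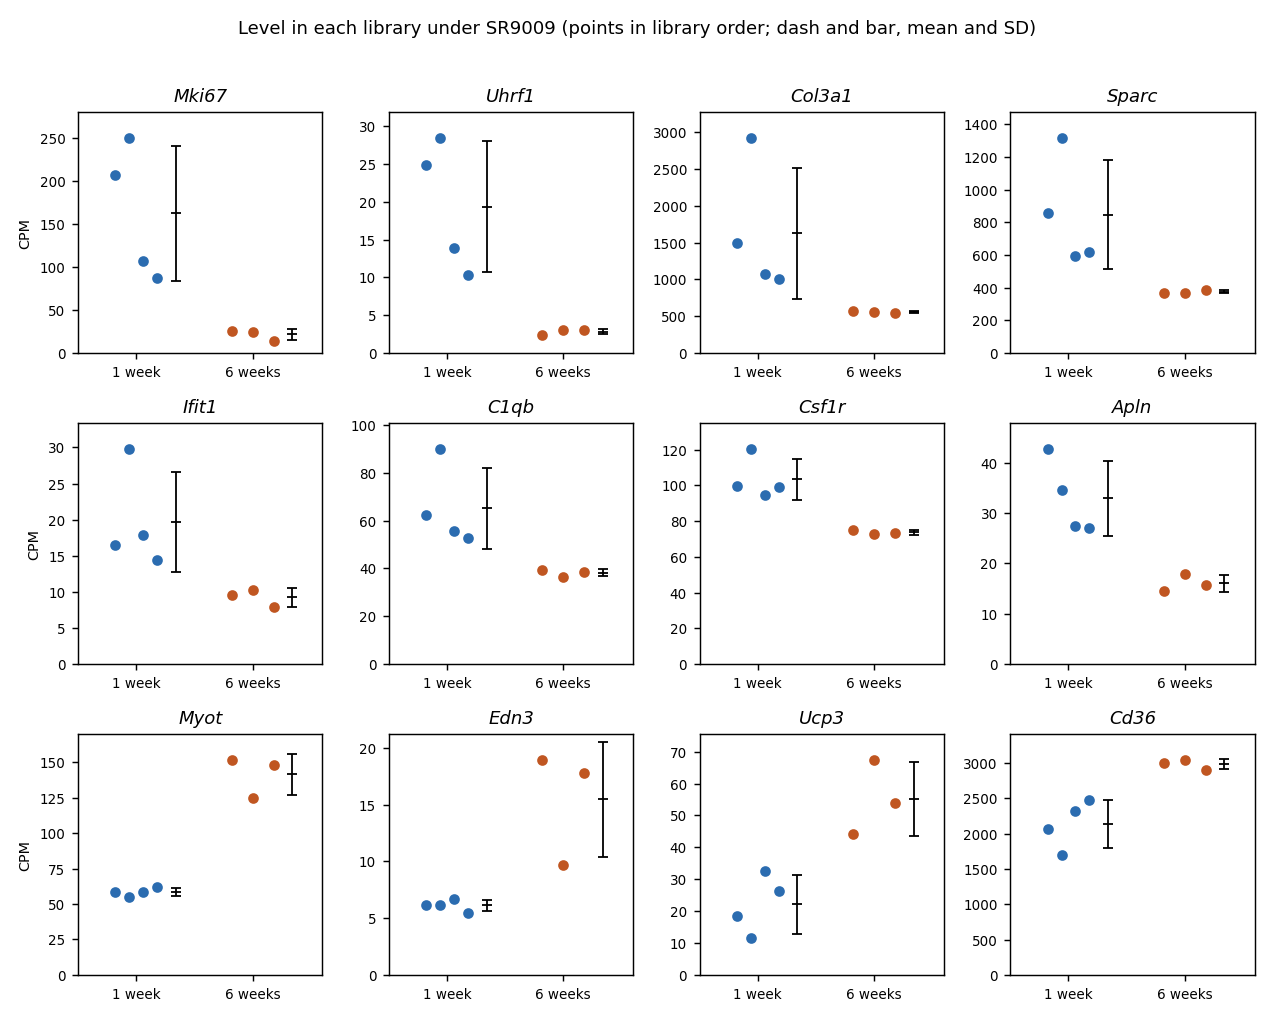
CPM of 12 genes in each SR9009 library (blue, 4 libraries at 1 week; orange, 3 libraries at 6 weeks; black dash and bar, mean and SD). The 12 genes all passed and were picked for display, and their groups do not overlap. Mki67, Uhrf1, Col3a1, Sparc, Ifit1, C1qb, Csf1r and Apln are lower at 6 weeks, and Myot, Edn3, Ucp3 and Cd36 are higher. Over all genes tested, 10.8% were higher and 12.1% lower at 6 weeks without overlap.

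Genes of the collagen matrix also fell. Of 28 genes of collagen and its processing 16 fell and 0 rose (median log2 fold change -0.70), while under vehicle 8 fell. Col3a1 (ENSMUSG00000026043.13, chromosome 1, 45311538 to 45349706), the chain of the fine collagen fibres of distensible tissue, was at 1497, 2918, 1075 and 1011 CPM at 1 week and 567, 552 and 548 CPM at 6 weeks. The 6-week libraries lay close together and below all those of 1 week, among which library 2 was by far the highest. The log2 fold change was -1.55 ± 0.30 (adjusted p = 0.00579), and the Control libraries held 491, 514 and 466 CPM. Col14a1, a collagen that decorates fibrils, went from 89.4, 168, 70.3 and 70.7 to 42.5, 38.8 and 42.04 CPM (-1.28 ± 0.26, adjusted p = 0.0073). Col1a1, the main chain of stiff type I fibres, went from 178, 361, 118 and 103 to 59.6, 73.7 and 59.2 CPM (-1.57 ± 0.34, adjusted p = 0.01), and no library overlapped for either gene. The other falls were in Col1a2 (-1.30 ± 0.28), in the fibril-nucleating Col5a1 (-1.005 ± 0.23) and Col5a2 (-1.30 ± 0.33), in the 3 chains of microfibrillar type VI collagen (Col6a1, Col6a2 and Col6a3, from -0.76 to -0.57), and in Col15a1 and Col16a1. The enzymes that fell were Plod1, which hydroxylates lysines of new chains (-0.34 ± 0.07), the trimming proteins Bmp1, Pcolce and Adamts2 (from -0.94 to -0.46), and the crosslinking oxidase Loxl2 (-1.10 ± 0.30).

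Matrix proteins outside the collagens shifted the same way with fewer calls. Of 33 matricellular and elastic matrix genes 5 fell and 1 rose (median -0.62). Sparc (ENSMUSG00000018593.7, chromosome 11, 55394500 to 55423183), a collagen-binding protein of remodelling tissue, was at 857, 1315, 593 and 621 CPM at 1 week and 369, 369 and 386 CPM at 6 weeks. The groups were clear of each other, and the log2 fold change was -1.18 ± 0.23 (adjusted p = 0.00582). Elastin (Eln), the rubber-like fibre protein, went from 42.8, 75.2, 37.4 and 36.7 to 19.6, 22.6 and 21.3 CPM (-1.19 ± 0.25, adjusted p = 0.00889). The other falls were in tenascin C (Tnc, -2.83 ± 0.68), fibronectin (Fn1, -1.49 ± 0.39) and lumican (Lum, -0.51 ± 0.14). The rise was in Ccn1, a growth-factor-induced matrix protein, from 58.9, 54.5, 44.1 and 52.5 to 78.4, 81.9 and 65.6 CPM (0.52 ± 0.12, adjusted p = 0.0143). Periostin (Postn), the secreted marker of activated fibroblasts, was at 688, 2016, 349 and 317 CPM at 1 week and 279.7, 209 and 229.7 CPM at 6 weeks, and missed the threshold at -1.81 ± 0.56 (adjusted p = 0.0507). Ccn2, a target of TGF-beta, did not pass either (-0.76 ± 0.40, adjusted p = 0.246). For both genes 1-week library 2 was far above every other library. Activated fibroblast markers summed to 1102, 2636, 619.6 and 549 CPM at 1 week and 537, 418 and 475 CPM at 6 weeks. Of 7 such markers 2 fell, Cthrc1 from 1.28, 9.16, 1.79 and 1.004 to 0.2705, 0.217 and 0.2301 CPM and Acta2, whose libraries overlapped, and 0 fell without 1-week library 2 or any one of the 6-week libraries. Of 8 markers of fibroblasts at large, 2 fell (Col1a1 and Lamc1), and the actin-severing gene Gsn rose (0.65 ± 0.18). In heart tissue, fewer cells of a type and less RNA per cell cannot be told apart. The collagen count was 10 without 1-week library 1, 4, 7 and 7 without 6-week libraries 1, 2 and 3, and 2 in the 7 libraries alone. The matrix count of 5 falls was 3 without 1-week library 2, 14 and 16 without 1-week libraries 3 and 4, and 1, 2 and 2 without 6-week libraries 1, 2 and 3.

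Interferon-induced genes were lower at 6 weeks, 15 of 22 by the test and all 22 in sign (median -0.84). A short form of the interferon-stimulated response element, TTTC, any 2 bases and TTTC again, is known from many genes of this kind. It was found in the windows of 10 of the 18 list genes that have one (55.6%), against 3.99% of all 27025 genes. The Ifit1 window (chr19:34640639-34640938, plus strand) is shown because it carries it more than once, marked in capitals; both strands were searched.
Ifit1: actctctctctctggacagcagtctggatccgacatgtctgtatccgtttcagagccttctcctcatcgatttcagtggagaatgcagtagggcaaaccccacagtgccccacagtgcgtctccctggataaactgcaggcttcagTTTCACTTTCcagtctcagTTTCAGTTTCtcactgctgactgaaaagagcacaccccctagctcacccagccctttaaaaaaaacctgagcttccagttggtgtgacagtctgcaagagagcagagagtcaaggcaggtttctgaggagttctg

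Ifit1 (ENSMUSG00000034459.8, chromosome 19, 34640871 to 34650009), whose protein binds foreign RNA lacking a cap methyl group, was at 16.5, 29.8, 17.9 and 14.4 CPM at 1 week and 9.56, 10.3 and 7.82 CPM at 6 weeks. All 6-week libraries were lower, 1-week library 2 was the highest, and the log2 fold change was -1.10 ± 0.23 (adjusted p = 0.00737). Oasl2, an antiviral relative of the oligoadenylate synthetases, went from 22.1, 32.4, 17.6 and 18.5 to 12.8, 11.6 and 8.74 CPM (-1.05 ± 0.20, adjusted p = 0.00468). Irf7, the factor that amplifies the response, had a log2 fold change of -1.06 ± 0.23, the signalling factor Stat2 of -0.55 ± 0.15, and the RNA sensor Ddx58 of -0.49 ± 0.11. Under vehicle 11 of the 22 fell (median -0.56). The count under SR9009 was 9 without 1-week library 2, 4 and 2 without 6-week libraries 2 and 3, and 5 in the 7 libraries alone. The interferon sum was 574, 776, 521 and 525 CPM at 1 week and 449, 365 and 371 CPM at 6 weeks, against 477, 421 and 566 CPM in the Control libraries.

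Macrophage genes were lower at 6 weeks while some genes of antigen presentation by class II molecules were higher. Of 8 macrophage markers 7 fell, where under vehicle 0 fell, and their summed level was 425, 567, 392 and 398 CPM at 1 week and 339, 295 and 308 CPM at 6 weeks. No member differed between the compounds by the test of the difference. Csf1r, the receptor for the growth factor that keeps macrophages alive, was at 99.4, 120.3, 94.7 and 99.1 CPM at 1 week and 75.3, 72.5 and 73.4 CPM at 6 weeks. All 6-week libraries lay below those of 1 week (-0.49 ± 0.08, adjusted p = 0.00208). Cd163 and Mrc1, receptors of resident macrophages, fell by 0.62 and 0.38, and the lysosomal Cd68 by 1.27. Adgre1, C1qa and Fcgr1 also fell, and the marker that did not pass was the chemokine receptor gene Cx3cr1 (0.10 ± 0.40, adjusted p = 0.907). Of 16 complement genes 6 fell and 0 rose. C1qb (ENSMUSG00000036905.8, chromosome 4, 136880129 to 136886187), part of the first complement component, which macrophages make, went from 62.5, 89.9, 55.6 and 52.6 to 39.3, 36.6 and 38.7 CPM (-0.77 ± 0.15, adjusted p = 0.00667). C2, a protease of the same pathway, went from 4.49, 5.94, 7.94 and 5.18 to 1.803, 1.09 and 2.07 CPM (-1.80 ± 0.22, adjusted p = 0.000992), and reads of overlapping genes can be counted in it. C2 also fell under vehicle (-2.05 ± 0.21). The other falls under SR9009 were in C1qa, C1qc, Cfb and the anaphylatoxin receptor gene C5ar1, whose log2 fold change was -1.12 ± 0.24. The macrophage count was 4 without 1-week library 2, 2, 2 and 1 without 6-week libraries 1, 2 and 3, and 2 in the 7 libraries alone. The complement count was 3 and 4 without 6-week libraries 2 and 3.

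Of 13 antigen presentation genes 4 rose and 0 fell, and the 4 were the class II genes H2-Aa, H2-Ab1 and H2-Eb1 and the invariant chain Cd74. Others of the class II pathway, H2-DMa, H2-DMb1 and Ciita, did not pass. Over the list 7 log2 fold changes were positive and 6 negative. Under vehicle 4 of the 13 rose and 1 fell. H2-Eb1 was at 20.8, 19.1, 24.05 and 26.6 CPM at 1 week and 43.8, 26.3 and 37.8 CPM at 6 weeks. The 6-week library 2 fell within the range of 1 week, and the log2 fold change was 0.67 ± 0.15 (adjusted p = 0.0131). Cd74 went from 56.3, 52.7, 62.8 and 67.1 to 103, 67.3 and 102 CPM (0.61 ± 0.14, adjusted p = 0.0149), with 6-week library 2 again the lowest of its group. The Control libraries held 44.2, 35.0 and 50.1 CPM of H2-Eb1 and 122, 98.4 and 134 CPM of Cd74. The count was 0 without 6-week library 1 or 3, 2 without 1-week library 1 or 2, and 0 in the 7 libraries alone. Of 24 inflammation genes 2 fell and 0 rose. They were the monocyte-attracting chemokines Ccl7, from 3.299, 4.94, 5.06 and 2.16 to 1.26, 2.28 and 1.46 CPM (-1.24 ± 0.34, adjusted p = 0.0318), and Ccl8, from 3.12, 6.297, 2.96 and 1.699 to 1.89, 1.52 and 1.07 CPM (-1.25 ± 0.38, adjusted p = 0.0495). Both were low and overlapped between the times, and the count ran from 0 to 7 over fits without 1 SR9009 library (0 without 1-week library 2 or 6-week library 1 or 3, 1 without 1-week library 1 or 6-week library 2, and 7 without 1-week library 4). Markers of T and NK cells summed to 2.801 to 3.79 CPM at 1 week and 3.16 to 3.298 CPM at 6 weeks, and those of B cells to 10.1 to 17.5 and 12.5 to 17.6 CPM.

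Markers of the mesothelium, the outer lining of the heart, were low and lower at 6 weeks. Of 6, the 5 genes Msln, Upk3b, Upk1b, Lrrn4 and Krt19 fell, and the transcription factor gene Wt1 did not pass (-0.37 ± 0.17). Under vehicle 5 of the 6 fell as well (median -2.57, against -1.76 under SR9009). Upk3b, a membrane protein of this lining, was at 14.2, 5.87, 13.7 and 10.5 CPM at 1 week and 4.24, 0.543 and 5.75 CPM at 6 weeks. The groups did not overlap, with 6-week library 2 lowest, and the log2 fold change was -1.57 ± 0.46 (adjusted p = 0.0427). The list summed to 54.7, 31.5, 51.2 and 40.01 CPM at 1 week and 19.7, 10.3 and 25.9 CPM at 6 weeks. The count was 3 without 1-week library 1, 1 and 0 without 6-week libraries 1 and 2, and 1 in the 7 libraries alone. Of 20 angiogenesis genes 1 fell and 1 rose. The fall was in Apln, a peptide of sprouting vessels, from 42.7, 34.5, 27.5 and 26.96 to 14.4, 17.9 and 15.7 CPM with no overlap (-1.04 ± 0.18, adjusted p = 0.00261). The rise was in Flt1, a receptor for vessel growth factors, from 170.01, 166, 168 and 171 to 205, 215 and 211 CPM (0.32 ± 0.08, adjusted p = 0.0193), which did not pass without any one of the 6-week libraries. None of 8 endothelial markers passed, and the list's median log2 fold change was -0.01. Other markers passed singly: of the lymphatic list Reln rose and Pdpn fell, and Cspg4 of the pericyte, Kit of the mast cell, Plac8 of the monocyte and Myl4 of the atrial list fell.

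The genes of the stressed ventricle showed no common direction between the times. Of 15 hypertrophy and fetal genes 1 rose and 0 fell (median -0.18), while 6 rose under vehicle. The rise was in Myot (ENSMUSG00000024471.7, chromosome 18, 44334074 to 44355724), a protein of the sarcomere's Z-disc that binds alpha-actinin, which was at 58.8, 55.1, 58.7 and 62.1 CPM at 1 week and 152, 125 and 148 CPM at 6 weeks. Every 6-week library stood far above every 1-week library. The means were 58.7 ± 2.86 CPM (SD, n = 4) and 142 ± 14.5 CPM (SD, n = 3), and the log2 fold change was 1.27 ± 0.11 (adjusted p = 1.64e-05), and the Control libraries held 44.3, 46.6 and 45.5 CPM. Myot also rose under vehicle, by 1.28 ± 0.11 on the log2 scale. Csrp3, a Z-disc stretch sensor, was at 1345, 1443, 1428 and 1371 CPM at 1 week and 1586, 1479 and 1764 CPM at 6 weeks and missed the threshold (0.21 ± 0.07, adjusted p = 0.0633).

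Nppa, the gene of atrial natriuretic peptide, was at 329, 933, 217 and 245 CPM at 1 week and 279.7, 225 and 233 CPM at 6 weeks. The 1-week library 2 was far above all others, and the gene did not pass (-0.81 ± 0.47, adjusted p = 0.287). Nppb, the gene of brain natriuretic peptide, was at 450.4, 647, 462 and 443 and 503, 407 and 347 CPM (-0.26 ± 0.16, adjusted p = 0.314). Acta1, skeletal actin, was at 1529, 2258, 1106 and 874 and 1655, 1266 and 1543 CPM (0.05 ± 0.32, adjusted p = 0.944), and Myh7, the slow myosin, at 607, 1212, 548 and 743 and 807, 671 and 1279 CPM (0.24 ± 0.40, adjusted p = 0.744). For all 4 genes both times overlapped. Under vehicle Acta1 and Myh7 rose between the same times, by 1.25 ± 0.31 and 1.60 ± 0.40 on the log2 scale. Acta1 there went from 1840, 753, 1930 and 1830 to 2730, 4900 and 3650 CPM. Myh7 went from 614, 509, 815 and 842 to 561, 2760 and 3010 CPM, with 6-week vehicle library 1 inside the 1-week range. The difference between the compounds was -1.20 ± 0.45 for Acta1 and -1.36 ± 0.57 for Myh7, and neither passed (adjusted p = 0.254 and 0.299). Without TAC 6 week vehicle library 1 the difference for Myh7 was -1.81 ± 0.37 and passed (adjusted p = 0.00756), and that for Acta1 was -1.38 ± 0.46 (adjusted p = 0.0891). Of 21 genes of TGF-beta, endothelin and angiotensin signalling 1 rose, Edn3, an endothelin ligand, from 6.14, 6.15, 6.69 and 5.48 to 18.9, 9.66 and 17.8 CPM. Its groups did not overlap, with 6-week library 2 lowest of its group (1.35 ± 0.20, adjusted p = 0.00147). Edn3 also rose under vehicle, by 1.32 ± 0.19. Ednra, the endothelin receptor of muscle cells, went from 41.1, 46.4, 46.8 and 48.6 to 35.7, 37.8 and 37.4 CPM and missed the threshold (-0.31 ± 0.09, adjusted p = 0.0507).

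Most genes of fatty acid and oxidative metabolism had small positive log2 fold changes, and few passed, where 3.29% of all genes tested rose. Of 29 fatty acid oxidation genes 2 rose and 0 fell, while 27 had a positive log2 fold change (median 0.23). Cd36 (ENSMUSG00000002944.10, chromosome 5, 17781690 to 17888801), the main fatty acid uptake protein of heart muscle, was at 2059, 1692, 2326 and 2477 CPM at 1 week and 3002, 3044 and 2906 CPM at 6 weeks. The 6-week libraries were all higher and close together (0.48 ± 0.10, adjusted p = 0.00894). Ucp3 (ENSMUSG00000032942.9, chromosome 7, 100472990 to 100486432), a carrier of the inner mitochondrial membrane that fatty acids induce, went from 18.3, 11.4, 32.7 and 26.2 to 44.2, 67.4 and 53.8 CPM, with 1-week library 2 lowest (1.31 ± 0.28, adjusted p = 0.00917). Ppargc1a, the coactivator that drives mitochondrial genes, was at 187, 133, 174 and 202 and 151, 175 and 171 CPM and did not pass (-0.07 ± 0.28, adjusted p = 0.902).

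Of 32 oxidative phosphorylation genes 1 rose and 0 fell, and all 32 had a positive log2 fold change (median 0.15). Cox5a, a subunit of cytochrome oxidase, went from 283, 218, 289 and 282 to 373, 343 and 336 CPM (0.39 ± 0.08, adjusted p = 0.00844), and its partner Cox5b missed the threshold (0.29 ± 0.09, adjusted p = 0.052). The summed level of the list overlapped between the times, at 26272, 21272, 30247 and 29713 CPM at 1 week and 29153 to 30380 CPM at 6 weeks. The 1-week libraries 3 and 4 thus lay within the range of 6 weeks, and libraries 1 and 2 below it. How many signs stay positive without library 1 or 2 was not tested. The 1-week library 2 held 21272 CPM of these genes and 29298 CPM of cardiomyocyte markers, the lowest of both among the 7 libraries. Without it the fatty acid count was still 2, and without 1-week libraries 3 and 4 it was 7 and 9. Without 6-week library 1 no oxidative phosphorylation gene passed.

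Of 31 genes of glucose use 2 rose and 2 fell. Pdk4, a kinase that shuts pyruvate out of the mitochondrion, was at 173, 142, 431 and 342 CPM at 1 week and 581, 799 and 438 CPM at 6 weeks. The groups did not overlap, though 1-week library 3 nearly reached 6-week library 3 (1.16 ± 0.30, adjusted p = 0.0232). Its relative Pdk1 rose by 0.22 ± 0.06, and the glycolytic enzyme genes Eno1 and Gapdh had log2 fold changes of -0.47 ± 0.10 (adjusted p = 0.0116) and -0.18 ± 0.05. Of 16 genes that break down branched-chain amino acids 3 rose, 0 fell and all 16 were positive (median 0.26). The 3 encode enzymes of the pathway, Bckdha (0.51 ± 0.15) and Dbt (0.49 ± 0.13, adjusted p = 0.032), both parts of the dehydrogenase complex, and the carboxylase subunit Mccc2 (0.49 ± 0.13, adjusted p = 0.0273). Mccc2 went from 50.9, 39.6, 61.4 and 58.6 to 69.3, 78.2 and 74.1 CPM with no overlap. The count was 0 without 1-week library 1 or 2, or without any one of the 6-week libraries. The count of rises among genes of glucose use was 0 without 1-week library 1 or 6-week library 1 or 2 and 1 without 6-week library 3. The count of falls was 0 without 6-week library 1 and 1 without 1-week library 1 or 2 or 6-week library 2 or 3.

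Of 19 genes of contraction and calcium handling 3 rose and 0 fell (median 0.19). They were the troponin T gene Tnnt2 (0.31 ± 0.09), Cacna1c, the pore of the L-type calcium channel, from 569.5, 421, 552 and 582 to 652, 733 and 678 CPM (0.37 ± 0.11, adjusted p = 0.0378), and Jph2, which holds the calcium store to the cell membrane, from 402, 324, 455 and 417 to 504, 508 and 489 CPM (0.32 ± 0.09, adjusted p = 0.028). All 3 had 1-week library 2 lowest. Atp2a2, the calcium pump of the store, was at 13613, 10254, 15907 and 15950.3 and 15199.8, 17099.8 and 16232 CPM and did not pass (0.22 ± 0.13, adjusted p = 0.308). Of 19 ion channel genes 3 rose. These were Scn4b, a sodium channel subunit, from 30.3, 18.96, 49.02 and 48.4 to 63.3, 74.6 and 52.9 CPM (0.79 ± 0.23, adjusted p = 0.0392), Kcnd3, a potassium channel of early repolarization, from 32.4, 23.04, 29.3 and 31.5 to 38.1, 38.3 and 39.3 CPM (0.41 ± 0.11, adjusted p = 0.0242), and the ATP-sensitive channel gene Kcnj11 (0.42 ± 0.13). The contraction count was 0 without 1-week library 1, 1 without 1-week library 2 and 0 without any one of the 6-week libraries. The channel count was 1 without 1-week library 1, 0 without 1-week library 2 and 0 without any one of the 6-week libraries.

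Lists of stress and turnover held single calls. Pink1, a kinase that marks damaged mitochondria, rose from 362, 268, 438 and 468 to 549, 547 and 555 CPM (0.52 ± 0.15, adjusted p = 0.0377), 1 of 18 autophagy genes. Fbxo40, a muscle ubiquitin ligase subunit, rose from 477, 445, 489.9 and 496 to 639, 567 and 588 CPM (0.33 ± 0.06, adjusted p = 0.00514), 1 of 12 atrophy genes, and Gadd45a did not pass (0.42 ± 0.16). Groups did not overlap for Pink1 or Fbxo40. Of 21 genes of the unfolded protein and ATF4 responses, the chaperone gene Hspa5 rose (0.30 ± 0.07, adjusted p = 0.0176) and Psat1, an enzyme of serine synthesis, fell from 11.1, 13.2, 6.77 and 5.87 to 4.15, 3.47 and 3.22 CPM (-1.35 ± 0.27, adjusted p = 0.00706). Among 15 heat shock genes Hspb8 rose (0.26 ± 0.06, adjusted p = 0.0142) and Hspb1 did not pass (0.28 ± 0.10). Of 19 immediate early genes, Fos (0.96 ± 0.28, adjusted p = 0.0388) and the phosphatase gene Dusp1 (0.47 ± 0.07, adjusted p = 0.0021) rose and Ier3 fell (-0.80 ± 0.24). Fos was at 9.81, 7.59, 5.99 and 8.73 CPM at 1 week and 21.1, 11.1 and 14.5 CPM at 6 weeks, with 6-week library 1 the highest. No immediate early gene fell without 1-week library 1, 2 or 3 or any one of the 6-week libraries. Pink1 and Fos each lost their call in 5 of 7 fits without 1 SR9009 library, Hspa5 in 3 (1-week library 1, 6-week libraries 1 and 3) and Hspb8 in 2 (6-week libraries 1 and 3).

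The clock genes moved in opposite blocks. Of 20 clock genes 3 rose, the activators Clock and Npas2 and the repressor Nfil3, and 3 fell, the output factor Dbp and the repressors Ciart and Bhlhe40. Genes of the arm that REV-ERB represses were higher at 6 weeks, with 3 of 10 rising and 0 falling (median 0.37), the same Clock, Npas2 and Nfil3, which both lists hold. A promoter window is shown for each arm. The E-box CACGTG, its own reverse complement, is the element that ARNTL with CLOCK or NPAS2 binds, and was found for 5 of the 17 clock genes that have a window (29.4%), against 8.09% of all 27025 genes. AGGTCA, the core of the element shared by REV-ERB and ROR receptors, was also found for 5 of 17, against 18.1% of all genes. Many other nuclear receptors bind the same letters. In the Ciart window (chr3:95882179-95882478, minus strand) capitals mark CACGTG and in an Arntl window (chr7:113207261-113207560, plus strand) they mark AGGTCA.
Ciart: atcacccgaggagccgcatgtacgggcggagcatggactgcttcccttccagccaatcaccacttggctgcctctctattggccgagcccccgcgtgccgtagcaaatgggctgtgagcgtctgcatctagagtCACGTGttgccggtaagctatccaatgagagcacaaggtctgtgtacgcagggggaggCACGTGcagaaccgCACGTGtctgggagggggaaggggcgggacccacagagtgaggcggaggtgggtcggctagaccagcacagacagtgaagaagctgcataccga
Arntl: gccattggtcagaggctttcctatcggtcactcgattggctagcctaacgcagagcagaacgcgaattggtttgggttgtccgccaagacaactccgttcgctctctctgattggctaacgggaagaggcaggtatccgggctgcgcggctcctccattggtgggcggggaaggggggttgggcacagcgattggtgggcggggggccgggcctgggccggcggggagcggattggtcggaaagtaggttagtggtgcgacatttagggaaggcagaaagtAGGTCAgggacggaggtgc

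Npas2 (ENSMUSG00000026077.10, chromosome 1, 39193731 to 39363236), which can stand in for CLOCK, was at 4.12, 3.01, 2.65 and 3.86 CPM at 1 week and 7.75, 7.596 and 9.59 CPM at 6 weeks. All 6-week libraries were higher (1.30 ± 0.27, adjusted p = 0.00889). Nfil3 (ENSMUSG00000056749.7, chromosome 13, 52967209 to 52981073), a repressor that competes with DBP, went from 8.43, 7.59, 8.25 and 9.19 to 17.5, 12.9 and 14.4 CPM with no overlap (0.84 ± 0.11, adjusted p = 0.000992). Clock went from 128, 123, 125 and 126 to 169, 156 and 161 CPM (0.37 ± 0.09, adjusted p = 0.0231). Arntl, the partner of both, was at 8.62, 7.87, 8.64 and 13.1 CPM at 1 week and 41.02, 27.5 and 32.98 CPM at 6 weeks. The groups were far apart, but the gene missed the threshold at 1.83 ± 0.58 (adjusted p = 0.0574).

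Ciart, a repressor of ARNTL and CLOCK, went from 11.2, 10.5, 8.87 and 15.1 to 3.97, 3.58 and 4.07 CPM (-1.55 ± 0.42, adjusted p = 0.0296). Dbp (ENSMUSG00000059824.5, chromosome 7, 45705088 to 45710203), whose protein drives genes through the D-box, was at 38.3, 30.3, 32.4 and 34.5 CPM at 1 week and 10.5, 18.2 and 15.8 CPM at 6 weeks (-1.19 ± 0.35, adjusted p = 0.0427). Bhlhe40 went from 101, 101, 92.99 and 90.8 to 45.4, 54.04 and 68.04 CPM (-0.79 ± 0.18, adjusted p = 0.0119). None of the 3 overlapped between the times. Per2, a core repressor, was at 34.3, 33.6, 35.3 and 30.2 CPM at 1 week and 7.66, 9.55 and 9.205 CPM at 6 weeks, clear of each other, and missed the threshold at -1.92 ± 0.61 (adjusted p = 0.0556). The receptors of SR9009 did not pass. Nr1d1 was at 44.3, 34.8, 42.3 and 43.03 CPM at 1 week and 24.3, 44.1 and 34.8 CPM at 6 weeks (-0.26 ± 0.17, adjusted p = 0.336), and reads of the overlapping Thra gene can be counted in it. Nr1d2 was at 252, 229.8, 261 and 267 and 137, 195 and 182 CPM, all 6-week libraries lower (-0.56 ± 0.23, adjusted p = 0.13). Cry1 overlapped between the times (0.03 ± 0.12).

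The fit shares 1 spread per gene over all groups, and TAC 6 week vehicle library 1 differed from libraries 2 and 3 of its group. Principal components, the main axes of spread among the 17 libraries, placed it near TAC 6 week SR9009. On component 1 it was at -10.2, TAC 6 week SR9009 at -17.9 to -14.8, and vehicle libraries 2 and 3 at 3.22 and -4.13. On component 2 it was at -8.68, within the TAC 6 week SR9009 range of -8.81 to -7.28, and vehicle libraries 2 and 3 were at -22.4 and -22.8. Whether its label is right was not tested. In that library Arntl was at 42.8 CPM, against 3.57 and 2.72 CPM, and Per2 at 2.28 CPM, against 58.9 and 67.2 CPM. The vehicle libraries at 1 week held 22.5, 16.4, 17.3 and 13.6 CPM of Arntl and 13.3, 19.9, 16.6 and 24.6 CPM of Per2. The labels give about zeitgeber time 10 for every library, and the part of the exact hour was not tested. Fitted to the 7 SR9009 libraries alone, 4 clock genes rose and 7 fell, with Arntl at 1.83 ± 0.19 (adjusted p = 0.0109) and Per2 at -1.92 ± 0.10 (adjusted p = 0.000111). With that 1 vehicle library left out of the whole fit, an alternative added after the data were seen, 5 rose and 10 fell. Dbp lost its call in each of 7 fits without 1 SR9009 library (adjusted p at most 0.171 over the alternatives), and the 3 clock falls became 1, 2, 2 and 2 without 1-week libraries 1 to 4 and 0, 1 and 1 without 6-week libraries 1 to 3. The 3 rises became 2 without any one of the 6-week libraries.

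**Figure D4:**
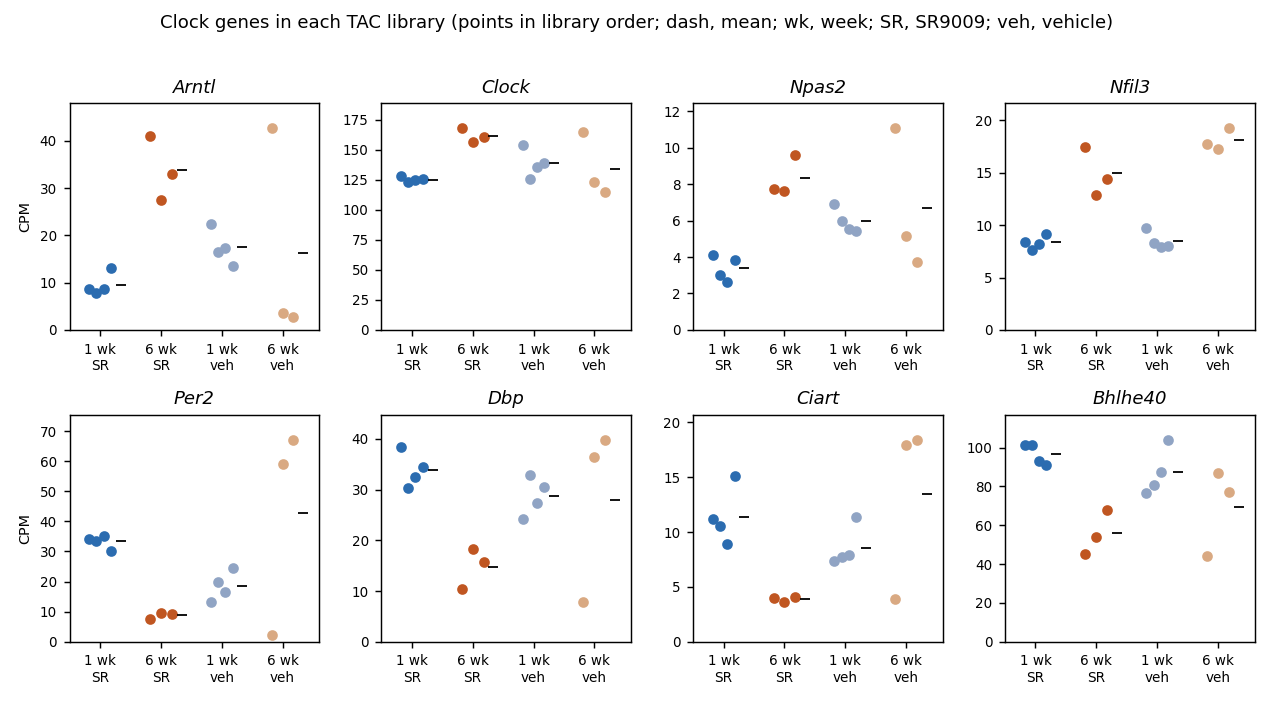
CPM of 8 clock genes in each TAC library (1 point per library; black dash, group mean; wk, week; SR, SR9009; veh, vehicle). Under SR9009 the 6-week points of Arntl, Clock, Npas2 and Nfil3 lie above all 1-week points and those of Per2, Dbp, Ciart and Bhlhe40 below, while 1 of the 3 vehicle libraries at 6 weeks lies far from the other two for Arntl, Npas2, Per2, Dbp and Ciart.

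Among genes that passed, reached 5 CPM or more in a group and showed no overlap of libraries, the largest rises belonged to no one list. The separation of libraries in these genes was hence a condition of their choice. Atcay, known from neurons, where its protein binds cargo for transport, went from 5.41, 3.51, 6.15 and 8.57 to 18.6, 17.5 and 16.1 CPM (1.56 ± 0.38, adjusted p = 0.0194). Pde11a, a phosphodiesterase that breaks down cyclic AMP and cyclic GMP, was at 3.299, 2.004, 3.19 and 3.09 CPM at 1 week and 7.03, 8.03 and 6.904 CPM at 6 weeks. All 6-week libraries were higher and 1-week library 2 the lowest (1.34 ± 0.17, adjusted p = 0.000992). Mmp3, a matrix-degrading protease, went from 2.57, 2.36, 2.41 and 3.79 to 7.303, 7.27 and 5.98 CPM (1.29 ± 0.20, adjusted p = 0.00181), and Cntn5, a cell adhesion protein known from neurons, from 5.04, 3.08, 3.19 and 4.25 to 8.02, 10.3 and 7.82 CPM (1.17 ± 0.20, adjusted p = 0.00248). Rmrp (ENSMUSG00000088088.1, chromosome 4, 43492788 to 43493058), the RNA of an RNase that processes ribosomal RNA precursors, was at 539, 349, 345 and 252 CPM at 1 week and 965, 809 and 669 CPM at 6 weeks. The groups did not overlap (1.13 ± 0.22, adjusted p = 0.00532). Edn3, Ucp3, Npas2, Myot and Pdk4, given above, made up the rest of the 10. Atcay lost its call in 5 of 7 fits without 1 SR9009 library and Pdk4 in 3 of 7, while Edn3, Pde11a, Ucp3, Npas2, Mmp3, Myot, Cntn5 and Rmrp passed in all 7.

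The same pair of times under vehicle gave 1925 genes that passed, 985 higher (6.18%) and 940 lower (5.9%), 12.1% together. That count was 1238 and 1271 without TAC 1 week vehicle libraries 1 and 3, and 1114 and 751 without TAC 6 week vehicle libraries 2 and 3. With library total as a covariate it was 85 (26 higher, 59 lower). The vehicle libraries held 8.47, 8.66, 8.97 and 12.3 M fragments at 1 week and 13.8, 13.1 and 15.5 M at 6 weeks. Depth hence did not overlap between the times under vehicle, and depth and time cannot be told apart there. The SR9009 and vehicle comparisons share no library, though they share the fitted spread. Of the genes that rose under SR9009, 202 also rose under vehicle, 38.5% of the former and 20.5% of the latter, and 395 fell under both, 43.8% of one list and 42.0% of the other. The opposite direction was seen in 11. Pearson's r between the log2 fold changes was 0.50 across the 15931 genes, which are not independent replicates. The test of the difference itself, SR9009 minus vehicle, called 19 genes (0.119%), 15 with a higher (0.0942%) and 4 with a lower (0.0251%) time difference under SR9009, and 2264 had an unadjusted p under 0.05. With library total as a covariate this test called 0 genes.

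Of the 15, 8 were genes of small structured RNAs, among them the 4 described next. They were 3 of 98 small nucleolar, 2 of 19 spliceosomal and 2 of 13 small Cajal body RNA genes tested, and Rmrp. Over all genes tested 0.0942% were called on this side. Rmrp rose under SR9009 and fell under vehicle, from 713, 797, 819 and 777 CPM at 1 week to 315, 377 and 572 CPM at 6 weeks, so that the compounds differed by 2.02 ± 0.31 (adjusted p = 0.0139). Ccdc107 lies on the opposite strand over the same bases as Rmrp, so reads of one can be counted in the other, and it differed by 1.31 ± 0.19 (adjusted p = 0.0139). Rnu12, the RNA of the minor spliceosome, was at 12.2, 7.51, 9.42 and 8.42 and then 17.6, 19.1 and 14.2 CPM under SR9009 and at 14.2, 18.8, 14.5 and 10.5 and then 9.41, 9.85 and 7.96 CPM under vehicle (1.52 ± 0.25, adjusted p = 0.0249). Rnu3a, a guide RNA of ribosomal RNA processing (1.14 ± 0.19, adjusted p = 0.0252), and Scarna6, a guide of spliceosomal RNA modification (0.99 ± 0.17, adjusted p = 0.0309), also stood on this side. Such RNAs come in near-identical copies and sit inside other genes, so the level of any one of them is uncertain. The immediate early gene Dusp1 was at 71.1, 65.5, 57.2 and 60.7 and then 86.8, 83.99 and 92.4 CPM under SR9009 and 73.7, 78.3, 86.6 and 75.99 and then 69.00, 76.1 and 74.1 CPM under vehicle (0.57 ± 0.11, adjusted p = 0.0405).

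The 4 genes with a lower time difference under SR9009 encode proteins. Ptgds, which makes prostaglandin D2, rose in both, from 226, 239, 265 and 286 to 328, 396 and 320.4 CPM under SR9009 and from 172, 196, 202 and 171 to 464, 400.4 and 484 CPM under vehicle (-0.82 ± 0.13, adjusted p = 0.0209). Vamp3, a vesicle fusion protein, fell under SR9009 and rose under vehicle (-0.33 ± 0.07 and 0.26 ± 0.07), a difference of -0.59 ± 0.10 (adjusted p = 0.0309). Ugp2, which makes the sugar donor for glycogen, did not pass under SR9009 (0.06 ± 0.07) and rose under vehicle (0.64 ± 0.07), a difference of -0.57 ± 0.10 (adjusted p = 0.0365). For Ackr4, a scavenger receptor for chemokines, the difference was -0.54 ± 0.09 (adjusted p = 0.0309).

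No member of 23 of the 24 lists passed this test, and of the immediate early genes Jun and Dusp1 did. The largest estimates among the named genes that missed it were those of Per2 (-3.11 ± 0.81, adjusted p = 0.123), Ciart (-2.18 ± 0.55, adjusted p = 0.121) and Postn (-2.12 ± 0.75, adjusted p = 0.232). The count depended on single libraries. It was 957 without TAC 6 week vehicle library 1, 44 and 45 without TAC 1 week vehicle library 4 and TAC 6 week SR9009 library 3, and between 7 and 10 without any one of TAC 1 week SR9009 library 3, TAC 6 week SR9009 library 2 or the 5 other vehicle libraries. Without TAC 6 week SR9009 library 1 it was 1. With the first of these left out, the clock list held 3 genes with a higher and 14 with a lower time difference under SR9009, among them Arntl at 4.29 ± 0.39 (adjusted p = 6.73e-06) and Per2 at -3.67 ± 0.26 (adjusted p = 7.18e-07), and all 19 genes still passed. That fit held only 2 libraries of TAC 6 week vehicle. The library left out lay within the TAC 6 week SR9009 range on principal component 2, as given above. Over all genes this fit called 464 with a higher and 493 with a lower time difference, where the fit to all libraries tested 15931. Its calls lay in most of the other lists too, in some as single genes. Of 33 matricellular and elastic matrix genes 7 had a lower time difference under SR9009. Of 21 genes of TGF-beta, endothelin and angiotensin signalling 7 had a lower and 1 a higher one. A lower one was found for 5 of 24 inflammation genes, 3 of 16 complement genes and 2 of 28 collagen genes. Of 20 angiogenesis genes 4 had a higher one. Of 10 REV-ERB repressed genes, some of which the clock list also holds, 5 had a higher and 2 a lower one. Of 19 immediate early genes 3 had a higher and 3 a lower one. None passed in either direction among genes of mitosis, DNA replication, interferon response, antigen presentation, oxidative phosphorylation or branched-chain amino acid breakdown.

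**Figure D5:**
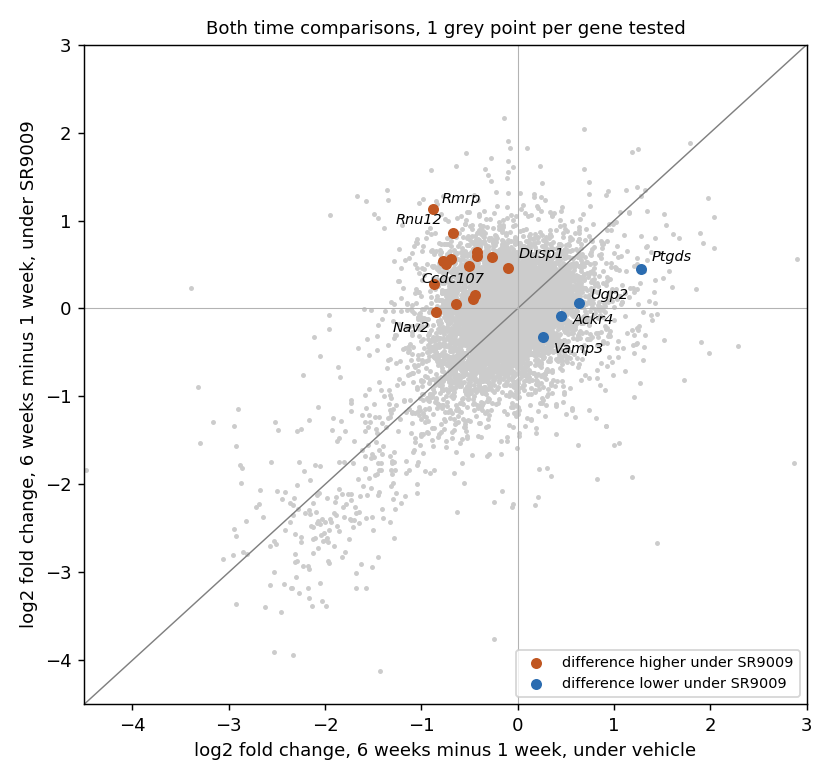
Log2 fold change from 1 to 6 weeks under SR9009 (y axis) against that under vehicle (x axis), 1 grey point per gene tested; the line marks equal values and 3 genes lie outside the axes. Coloured points are the 19 genes whose time differences differ by the test, 15 above the line (orange) and 4 below it (blue).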

How the data were processed

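RNA was measured by RNA-seq of total RNA in 17 libraries of mouse heart. Per the file headers, the authors deposited 1 table per library laid out like Cuffdiff's read-group tables, with estimated counts (raw fragments per gene, not normalized), which were rounded to whole numbers here. Per the submitters' processing notes the genome build was mm10; the sources used here name no aligner, counter version or annotation. Genes with status HIDATA (too many fragments to be counted) are written as 0 in the deposited tables, so 78 were left out; 72 of them had that status at 6 weeks and all 78 at 1 week. Of 41126 IDs, 40252 were found in GENCODE vM21, which gave symbols and coordinates; the 874 others held 0.735% to 2.33% of fragments.

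Differences were tested by the quasi-likelihood method of edgeR 4.0.16 under R 4.3.3. A single model held all 17 libraries and fitted each group's mean, after TMM scaling and the filterByExpr filter (25117 genes removed). The common dispersion was 0.0106 and residual degrees of freedom were 12. Benjamini-Hochberg adjustment ran over all genes tested. CPM is relative to the TMM-scaled total, and values near 1 CPM rest on few fragments. The members, the 24 pathway and 19 marker lists and the naming rule were chosen with earlier results of these data known. The rule named 10 rises and 10 falls, the largest log2 fold changes among genes that passed, had a group mean of 5 CPM or more and showed no overlap of libraries; predicted genes were skipped. To these came the 2 members with the smallest p in every pathway list, 20 preset heart and clock genes, and, for the difference from vehicle the 5 genes with the smallest p in each direction. Other members were named after their values were seen, and some members are not reported here. Same-numbered libraries of the 2 times had correlations of 0.02, -0.08 and 0.03 in their deviations from group means. These values do not show that the numbers pair the libraries, and they cannot exclude it. The fit was tested on simulated data. Alternatives were RLE scaling, no filter, DESeq2 1.42.0, a replicate block, library total as a covariate, fewer libraries, a minimum fold of 1.2 and leaving out each library. Promoter windows are from RefSeq on GRCm38.p6.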

Additional observations from a re-analysis of the deposited data

Results flagged for a closer look

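Among the 84 named genes, 8 had 1 library of the 4 at 1 week that lay far from the others by Dixon's test, which chance alone gives in about 1 of 20 groups. In 1-week library 2 the phosphodiesterase gene Pde11a was at 2.004 CPM (others 3.09 to 3.30), elastin (Eln) at 75.2 CPM (36.7 to 42.8), the cytochrome oxidase gene Cox5a at 218 CPM (282 to 289) and the growth arrest gene Gadd45a at 6.30 CPM (10.7 to 11.3). In the same library Nppa was at 933 CPM (217 to 329) and Nppb at 647 CPM (443 to 462). In 1-week library 4 Mmp3 was at 3.79 CPM (2.36 to 2.57) and Arntl at 13.1 CPM (7.87 to 8.64).

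For 10 of the 84 named genes the change from 1 to 6 weeks differed between SR9009 and vehicle by edgeR's test of the difference. Over all genes 19 did. All of the 10 but Dusp1 were named, at least in part, for a small p in this same test. The difference, SR9009 minus vehicle on the log2 scale, was 2.02 for Rmrp (adjusted p = 0.0139), 1.31 for Ccdc107 (adjusted p = 0.0139), 1.52 for Rnu12 (adjusted p = 0.0249), 1.14 for Rnu3a (adjusted p = 0.0252), 0.99 for Scarna6 (adjusted p = 0.0309) and 0.57 for Dusp1 (adjusted p = 0.0405). It was -0.82 for Ptgds (adjusted p = 0.0209), -0.54 for Ackr4 (adjusted p = 0.0309), -0.59 for Vamp3 (adjusted p = 0.0309) and -0.57 for Ugp2 (adjusted p = 0.0365). With library total as a covariate none of these passed, and the part of depth in them was not tested further. Under vehicle depth did not overlap between the times (8.47 to 12.3 M fragments at 1 week, 13.1 to 15.5 M at 6 weeks).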

How the results depend on the processing

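The comparison of 6 with 1 week under SR9009 called 1407 genes with RLE scaling, 1450 with no filter and 1653 with DESeq2, against 1426. It called 880 (301 higher, 579 lower) with library total as a covariate, 451 (122, 329) in the 7 libraries alone and 320 (43, 277) against a minimum fold of 1.2. Dropping only the uncounted genes of the 7 files gave the same gene set, so it is not a separate fit. Without 1 library the counts ran from 447 to 2025, higher from 125 to 769 and lower from 322 to 1256. No gene called in the fit to all libraries changed sign in any of these. Whether the replicate numbers pair the libraries is not known, and with the replicate block the count was 782 (258 higher, 524 lower), 767 of them among the 1426.

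The difference from vehicle called 102 genes (54 higher, 48 lower) with no filter, 198 (104, 94) with DESeq2, 6 (6, 0) with the replicate block, 0 (0, 0) with library total as a covariate, and 7 (6, 1) in the 14 TAC libraries. It called 1149 (533, 616) without TAC 6 week vehicle library 1 and TAC 1 week SR9009 library 2 together. Without 1 library the counts ran from 1 to 957, higher from 1 to 464 and lower from 0 to 493. The covariate count of 0 is edgeR's; with DESeq2 and no covariate 198 were called, and 2264 genes had an unadjusted p under 0.05 in the edgeR fit to all libraries.

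Without 1 library, the sign turned for 4 genes that did not pass. Log2 fold changes ran from -0.125 to 0.348 for Acta1 (negative without 1-week libraries 3 or 4 or 6-week library 1), from -0.0727 to 0.538 for Myh7 (negative without 6-week library 3), from -0.111 to 0.126 for Cry1 (negative without 6-week library 1) and from -0.181 to 0.0141 for Ppargc1a (positive without 1-week library 4). Groups of 3 and 4 libraries and depths of 9.69 to 13.4 M fragments limit what can be seen: genes near 1 CPM carry a large counting error. The cause of the moves was not tested.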

Other observations

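Gene families outside the lists, chosen after their values were seen, are given beside the shares over all genes tested, of which 3.29% rose and 5.66% fell. Of 46 replication-dependent histone genes 29 fell and 0 rose (median log2 fold change -2.07), and under vehicle 39 fell. Their summed level was 585, 622, 401 and 345 CPM at 1 week and 296, 273 and 259.6 CPM at 6 weeks, although near-identical copies can share reads. Of 10 Ms4a genes, membrane proteins of which several are known from macrophages, 4 fell and 0 rose (median -0.998), and of 7 Fc receptor genes, which bind antibodies, 4 fell and 0 rose (median -0.71); under vehicle 0 of either family passed. No member of these 3 families differed from vehicle by the test of the difference.

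Genes of small nucleolar RNAs, which guide the modification of ribosomal RNA, rose in 25 of 98 cases and fell in 0 (median 0.62), where under vehicle 0 rose and 10 fell (median -0.42). By the test of the difference 3 of the 98 passed. Their summed level was 1086, 888, 1006 and 877 CPM at 1 week and 1537, 1604 and 1192 CPM at 6 weeks under SR9009, against 1052, 1215, 1129 and 908 and 853, 887 and 913 CPM under vehicle. Of 19 spliceosomal RNA genes 4 rose and 0 fell, while under vehicle 0 rose and 5 fell. Many of these RNAs lie in introns of other genes, whose reads can be counted in them, so their levels are uncertain. Of 81 cytosolic ribosomal protein genes 8 fell and 0 rose (median -0.11), while under vehicle 2 fell and 4 rose. Of 77 mitochondrial ribosomal protein genes 2 rose and 0 fell (median 0.10), while under vehicle 11 rose and 0 fell.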
